A study of Rattus norvegicus with 70 samples.

Results

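Wt1 is the rat gene for the Wilms tumour protein, and the deposited tables hold 1 region around its start among 17174 regions with 16561 gene symbols. The region was taken by its symbol, and every library has a value for it. The gene was chosen by measured values, namely the low signal of the rats given vehicle and then phenobarbital at partial hepatectomy, beside the water control and the initiated groups. Those hepatectomy differences are therefore given as a description with no test, and the tests concern terminal euthanasia and the comparisons without that group. The other groups at partial hepatectomy served as the level for that choice. Tests that use their values there, also those between the times, are therefore not wholly free of it. The rats given vehicle and phenobarbital had the lowest mean of 7 conditions at partial hepatectomy and the second highest at terminal euthanasia. No tested difference in this region passed an adjusted p of 0.05.

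WT1 is a zinc finger transcription factor that is required for the formation of the kidney and the gonads. In the adult it is found in podocytes of the kidney, Sertoli cells of the testis and mesothelial cells, which also cover the liver, and in mice the mesothelium of the embryonic liver gives rise to hepatic stellate cells. It is lost in part of Wilms tumours, a childhood kidney cancer, and is abundant in some leukaemias. The methyl-binding protein used here captures DNA fragments with methylated CpG sites, so more reads over a region mean more captured methylated DNA, and a stretch with few CpG sites gives few reads whatever its state. Expression was not measured.

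Liver DNA came from Crj:CD(SD)IGS rats of a 2-stage carcinogenesis model, in which an initiating treatment is followed by a promoting one and every rat undergoes partial hepatectomy. The initiated groups received diethylnitrosamine, an alkylating carcinogen, at 3 mg/kg (DEN3_PB) or 30 mg/kg (DEN30_PB), thioacetamide at 45 mg/kg (TAA45_PB), methapyrilene at 100 mg/kg (MP100_PB) or acetaminophen at 1000 mg/kg (APAP1000_PB), and all 5 then had phenobarbital at 500 ppm in the drinking water. Diethylnitrosamine at 30 mg/kg was given for 1 week because of weight loss. The promoted control (MC_PB) received 0.5% methylcellulose and then phenobarbital at 500 ppm, and the water control (MC_water) received 0.5% methylcellulose and then water. Livers were sampled at terminal euthanasia, after 6 weeks of promotion, and at partial hepatectomy, after 1 week. Each of the 14 groups had 5 livers with 1 library each, 70 libraries in all. The labels do not say whether a rat was sampled at both times.

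Across the 70 libraries the regions held 0.933 M to 1.80 M reads, with 41 to 69 reads in the median region. Between 0.611% and 5.39% of regions had no read. In 9 libraries, called weakly enriched here for the even spread of their reads, this share was at most 0.932%, against at least 1.60% in the other 61. The Wt1 region rested on 4 to 72 reads a library, which limits the precision of a single value. Replicate 5 of each initiated condition at both times, 10 libraries in all, was scaled by a number that equals that of another library, so their signals may carry a wrong factor, and this was not settled. Scaling by the reads in the regions does not use that number. At terminal euthanasia it gave a log2 difference of MC_PB from the 6 other conditions of 0.72, against 0.65 from the deposited signal. DEN3_PB minus MC_PB was -1.10 against -0.95, and DEN30_PB minus MC_PB was -0.82 against -0.74. MC_PB minus MC_water was 0.97 against 0.96, but neither of these groups holds any of the 10 libraries, so that pair cannot show an effect of the number. Whole liver DNA was used, so a change of methylation within a cell type and a change in the share of a cell type cannot be told apart. Signal around the starts of marker genes is not expression, so the tissue label could not be checked against defining markers.

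The region lay on chromosome 3 from 90525204 to 90530829 on the plus strand, 5625 bp around the start of transcript NM_031534, in the coordinates of the files (build not given in the sources used here). No other region of the tables overlapped it. The 250 bases before a Wt1 start in the RefSeq promoter table of build GRCr8, chr3:112021759-112022008 on the plus strand, are shown for their CpG sites, the letters in capitals, since methylated CpG is what the protein captures. Whether this stretch lies inside the measured region was not tested, because the builds could not be matched.

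Wt1 promoter: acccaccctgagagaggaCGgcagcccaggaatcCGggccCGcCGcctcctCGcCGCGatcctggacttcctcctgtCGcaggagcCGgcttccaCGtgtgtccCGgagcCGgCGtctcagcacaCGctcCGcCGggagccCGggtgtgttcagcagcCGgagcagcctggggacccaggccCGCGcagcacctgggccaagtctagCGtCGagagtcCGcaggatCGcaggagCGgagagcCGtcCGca

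This stretch held 27 CpG sites, against a median of 5 in the same window of all 33469 promoters of the table, and 7.69% of the promoters had at least as many. Its GC content was 71.6% and its ratio of observed to expected CpG was 0.84, the composition of a CpG island. RefSeq lets the gene begin 2288 bp upstream of the start used for the table, so that part or all of the stretch may be transcribed in other models. On either strand, the stretch had no match to GCGGGGGCG, a binding sequence of WT1 and of the related EGR proteins, which occurs in 2.45% of the promoters. GCGTGGGAG, another WT1 sequence, was also absent and occurs in 0.338% of them. The SP1 core GGGCGG was not found here either, and occurs in 30.5%. The palindromic E-box CACGTG, which is bound by the MYC family, was present once from position 94 counted from the 5′ end, and occurs in 5.59%. These are matches of letters in 1 window and not measured binding.

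The deposited signal of the region ranged from 4.36 to 80.1 over the 70 libraries with a median of 30.1. The signal is a read number that the authors scaled to a common library size. The region was a lowly covered and variable one: its mean log2 signal was higher than that of 29.8% of tested regions at terminal euthanasia and 25.4% at partial hepatectomy. Its spread within groups, as a residual SD on the log2 scale, was 0.77 at terminal euthanasia and 0.67 at partial hepatectomy, against medians over all tested regions of 0.39 and 0.37 at those times. At these times 87.0% and 83.8% of regions varied less than Wt1.

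At terminal euthanasia the 5 MC_PB libraries had signals of 39.7, 35.7, 37.5, 43.8 and 80.1. The 5 MC_water libraries had signals of 30.6, 16.8, 26.03, 15.04 and 29.7. All MC_PB libraries lay above all MC_water libraries, and the highest MC_PB library stood apart from the other 4. The means were 47.3 ± 18.6 in MC_PB and 23.7 ± 7.27 in MC_water (SD, n = 5 each), a ratio of 2.00.

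The initiated groups at terminal euthanasia spread widely. TAA45_PB was the only condition with a mean as high as that of MC_PB, at 47.5 ± 15.7, with libraries at 32.1, 32.9, 47.6, 69.1 and 55.7. APAP1000_PB averaged 35.5 ± 19.8, with libraries at 24.3, 16.8, 50.4, 62.6 and 23.5. DEN30_PB averaged 31.9 ± 21.2, with libraries at 13.1, 17.4, 52.995, 56.9 and 19.05. In both of these groups 2 libraries above 50 stood over 3 libraries below 25. The 2 higher ones were replicates 3 and 4 in each group, which belong to the third block of library numbers described below. MP100_PB averaged 30.0 ± 13.6, with libraries at 28.5, 38.04, 43.1, 32.7 and 7.73. DEN3_PB averaged 27.2 ± 14.6, with libraries at 29.2, 5.88, 32.7, 22.5 and 45.6 (SD, n = 5 in each group). These 2 groups each held 1 library below 10. By mean, the order from high to low was TAA45_PB, MC_PB, APAP1000_PB, DEN30_PB, MP100_PB, DEN3_PB and MC_water. Each neighbouring pair in this order overlapped and differed by less than the larger SD of the pair.

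**Figure D1:**
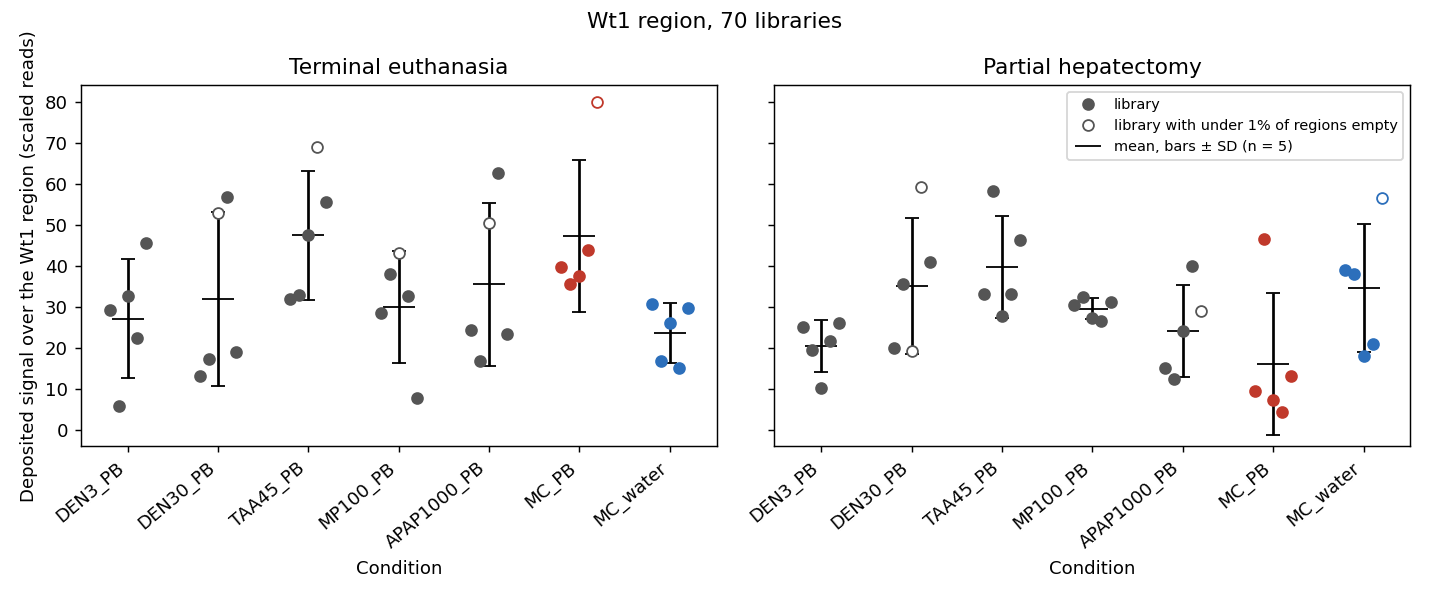
Deposited signal over the Wt1 region (scaled reads, y axis) in each library by condition (x axis), at terminal euthanasia (left) and partial hepatectomy (right). Points are libraries, open points are weakly enriched libraries, and bars give mean ± SD (n = 5); MC_PB averaged 47.3 on the left and 16.2 on the right.

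The terminal comparisons ask whether phenobarbital promotion alone, or initiation before it, goes with a different signal at Wt1. MC_PB was 0.96 above MC_water on the log2(signal + 1) scale (SE 0.39, 95% interval 0.17 to 1.74), with an unadjusted limma p of 0.017 and a limma adjusted p of 1.00 over 16008 tested regions. The exact two-sided permutation test over the same 10 libraries gave p = 0.0079, the smallest value 5 against 5 can give, and 0.087 after Benjamini-Hochberg adjustment over the 11 Wt1 comparisons tested in this way. Groups that did not overlap with MC_PB higher were found for 0.4% of the tested regions in this comparison, 64 of 16008. Under the limma adjusted threshold 0 of 16008 regions (0.0%) differed between MC_PB and MC_water, whereas 507 (3.17%) had an unadjusted p under 0.05. edgeR and DESeq2 on recovered reads also called 0 regions. At Wt1 the groups thus did not overlap at terminal euthanasia, and the difference did not pass the threshold over all regions.

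Set against the mean of the 6 other conditions, MC_PB was higher by 0.65 on the log2 scale (SE 0.30, 95% interval 0.05 to 1.25, limma adjusted p = 0.98). The permutation test gave p = 0.071, or 0.26 after adjustment over the 11 comparisons. Among the 16008 tested regions 1.80% had a larger difference in this direction. limma, edgeR and DESeq2 each called 0 regions (0.0%) here, and 601 regions (3.75%) had an unadjusted limma p under 0.05.

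Of the initiated groups, DEN3_PB lay 0.95 below MC_PB on the log2 scale (SE 0.39, 95% interval 0.17 to 1.74 below, limma adjusted p = 0.58, exact permutation p = 0.063, or 0.26 after adjustment over the 11). MP100_PB lay 0.76 below MC_PB (limma adjusted p = 1.00) and DEN30_PB 0.74 below it (limma adjusted p = 1.00). APAP1000_PB lay 0.51 below MC_PB, with a limma adjusted p of 1.00. Single libraries moved these differences: DEN3_PB minus MC_PB was -0.51 without DEN3_PB replicate 2, MP100_PB minus MC_PB was -0.35 without MP100_PB replicate 5, DEN30_PB minus MC_PB was -0.49 without DEN30_PB replicate 1, and APAP1000_PB minus MC_PB was -0.29 without APAP1000_PB replicate 2. With library blocks as a term the difference from MC_PB was -0.82 for APAP1000_PB, -1.08 for MP100_PB, -0.88 for DEN30_PB and -0.77 for DEN3_PB. The difference of TAA45_PB from MC_PB was 0.01 (95% interval -0.77 to 0.80), which leaves room for a difference of either sign. For each of these 5 comparisons 0 of 16008 regions (0.0%) passed the limma threshold, with edgeR and DESeq2 also at 0, and the share with an unadjusted limma p under 0.05 was 8.51% for DEN3_PB, 3.41% for DEN30_PB, 2.06% for TAA45_PB, 2.57% for MP100_PB and 2.76% for APAP1000_PB.

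No difference between the diethylnitrosamine groups could be separated from the spread: DEN30_PB was 0.22 above DEN3_PB (SE 0.39, 95% interval -0.57 to 1.00, limma adjusted p = 1.00). The labels give 1 week of treatment for DEN30_PB and no length for DEN3_PB, so dose and length of treatment were not separated. The mean of the 5 initiated conditions was 0.37 above MC_water (95% interval -0.24 to 0.98, limma adjusted p = 1.00). In these comparisons limma called 0 of 16008 regions (0.0%), with 3.01% and 4.31% at an unadjusted p under 0.05, and edgeR called 1 region (0.00625%) between the doses, which was not that of Wt1. An F test over the 7 conditions gave F = 2.22 with an unadjusted p of 0.052 and a limma adjusted p of 1.00. By that F test 0 of 16008 regions (0.0%) passed and 409 (2.55%) had an unadjusted p under 0.05.

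**Figure D2:**
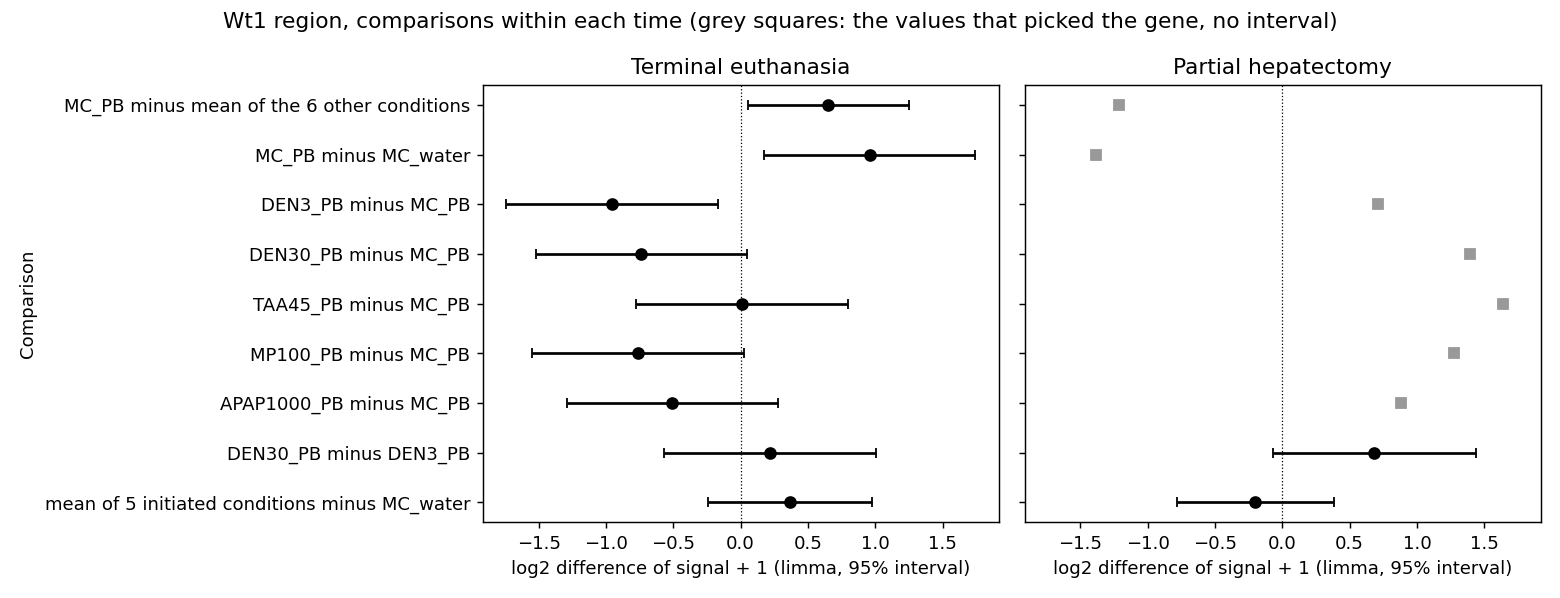
Differences in log2(signal + 1) of the Wt1 region (x axis) for each comparison (y axis) at terminal euthanasia (left) and partial hepatectomy (right). Points with bars are limma differences with 95% intervals; grey squares are the values that picked the gene and carry no interval. MC_PB minus MC_water was 0.96 on the left and -1.38 on the right.

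At partial hepatectomy the MC_PB libraries had signals of 9.48, 46.7, 7.42, 4.36 and 13.2, on 9, 42, 7, 4 and 14 reads. The MC_water libraries had signals of 38.99, 37.99, 18.2, 21.03 and 56.7. In MC_PB 4 of 5 libraries lay below every MC_water library, and the remaining one, replicate 2, lay above 4 of them, so the groups overlapped. Means were 16.2 ± 17.3 in MC_PB and 34.6 ± 15.6 in MC_water (SD, n = 5 each). The log2 difference was -1.38, and -1.21 against the mean of the 6 other conditions.

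The initiated groups at partial hepatectomy all had higher means than MC_PB, as the choice of the gene implies. TAA45_PB averaged 39.7 ± 12.4, with libraries from 27.7 to 58.3 and a median of 33.2. DEN30_PB averaged 35.1 ± 16.6, with libraries from 19.2 to 59.2 and a median of 35.7. MP100_PB averaged 29.6 ± 2.51, and its libraries from 26.6 to 32.5 were the tightest of the 14 groups. APAP1000_PB averaged 24.2 ± 11.1, with libraries from 12.4 to 40.02. DEN3_PB averaged 20.5 ± 6.30, with libraries from 10.3 to 25.996 (SD, n = 5 in each group). Log2 differences from MC_PB were 1.64 for TAA45_PB, 1.39 for DEN30_PB, 1.28 for MP100_PB, 0.88 for APAP1000_PB and 0.71 for DEN3_PB. The last of these was 1.19 without MC_PB replicate 2, 0.40 without MC_PB replicate 4 and 0.34 with edgeR, and that of APAP1000_PB was 1.36 and 0.57 without those replicates. Each of these ranges overlapped that of MC_PB, for TAA45_PB, DEN30_PB and MP100_PB only through MC_PB replicate 2. Here too, neighbours in the order of means, with MC_water between DEN30_PB and MP100_PB, overlapped and differed by less than the larger SD.

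The comparisons without MC_PB at this time were tested. The values of these groups served as the level against which MC_PB was low when the gene was chosen, so the tests are not wholly free of that choice. DEN30_PB was 0.68 above DEN3_PB on the log2 scale (SE 0.38, 95% interval -0.07 to 1.44, limma adjusted p = 0.93, exact permutation p = 0.12, or 0.26 after adjustment over the 11). This difference was 0.38 with library blocks as a term, 0.45 with quantile normalization and 0.76 with DESeq2. With 1 library left out it ranged from 0.47 (without DEN3_PB replicate 3) to 0.86 (without DEN30_PB replicate 3). The mean of the 5 initiated conditions was 0.20 below MC_water, with a 95% interval from -0.78 to 0.38 and a limma adjusted p of 0.88. In each of these comparisons 0 of 15809 regions (0.0%) passed with limma, edgeR and DESeq2, and 825 (5.22%) and 1104 (6.98%) had an unadjusted limma p under 0.05. An F test among the 5 initiated conditions gave F = 2.04 for Wt1 (unadjusted p = 0.099, limma adjusted p = 1.00) and called 1 of 15809 regions (0.00633%), with 3.18% at an unadjusted p under 0.05.

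Between the times, the mean MC_PB signal was 47.3 at terminal euthanasia and 16.2 at partial hepatectomy, a log2 difference of 1.87 that rests in part on the values that picked the gene and is not tested. MC_water averaged 23.7 at terminal euthanasia and 34.6 at partial hepatectomy, a log2 difference of -0.47. The position of MC_PB against MC_water was thus above at terminal euthanasia and below at partial hepatectomy. For the initiated conditions, the terminal minus hepatectomy differences were 0.49 in APAP1000_PB, 0.24 in TAA45_PB, 0.21 in DEN3_PB, -0.17 in MP100_PB and -0.26 in DEN30_PB. The mean over the 6 conditions other than MC_PB was 0.01 (SE 0.17, 95% interval -0.33 to 0.34, limma adjusted p = 1.00), in a fit of 16385 regions that called 9 (0.0549%), with 5.4% at an unadjusted p under 0.05. In none of the 6 conditions taken alone did Wt1 differ between the times at a limma adjusted p of 0.05, nor did any other region (0.0% called), while 2.95% to 4.81% of regions had an unadjusted p under 0.05. The difference of DEN30_PB from DEN3_PB changed by -0.47 between the times on the log2 scale, and that of the initiated conditions from MC_water by 0.57, both with a limma adjusted p of 1.00.

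Library quality moved with the level of Wt1. The 5 weakly enriched libraries at terminal euthanasia had signals from 43.1 to 80.1 with a median of 52.995, against 5.88 to 62.6 with a median of 30.2 in the other 30. All 5 belong to the third block of library numbers described below, so library quality and block overlap at that time. Their parts were not separated. At partial hepatectomy the 4 weakly enriched libraries ranged from 19.2 to 59.2 with a median of 42.9, against 4.36 to 58.3 with a median of 26.6 in the other 31. The highest library of MC_PB at terminal euthanasia was one of them, and so was the highest MC_water library at partial hepatectomy. Without the weakly enriched libraries the terminal difference of MC_PB from MC_water was 0.76 (limma adjusted p = 1.00) and that from the 6 other conditions was 0.57. The 4 remaining MC_PB libraries averaged 39.2 and lay above all 5 of MC_water, which follows from the groups not overlapping with all libraries. Without weakly enriched libraries, the hepatectomy difference of MC_PB from MC_water was -1.18. Among the initiated groups at partial hepatectomy, the F test without the weakly enriched libraries gave F = 2.19, against 2.04 with all. DEN30_PB minus DEN3_PB there was 0.63 without them, against 0.68. These refits only drop libraries, and the part of library quality in the differences among the initiated groups was not itself tested.

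Library numbers in the titles, in 4 blocks, also went with the level, but not in the same order at both times. At terminal euthanasia the third block (numbers 41 to 60) had a median of 51.7, against 29.9, 27.3 and 23.5 in the other blocks in order. At partial hepatectomy the third block had a median of 27.6, against 34.4, 16.7 and 31.1 in the other blocks in order. The labels do not say what the library numbers stand for. Conditions were spread unequally over the blocks. DEN3_PB had no library in the third, MP100_PB and APAP1000_PB had none in the first, and DEN30_PB and TAA45_PB none in the second. The block medians and the order of the condition means thus partly mix block and condition. Within the first block MC_PB averaged 37.7 and MC_water 23.7 at terminal euthanasia, in the second 40.7 and 20.5 (n = 2 each), and in the third 80.1 and 29.7 (n = 1 each). MC_PB was the higher in each of these 3 blocks, which follows from the groups not overlapping and adds nothing to it. At partial hepatectomy the within-block means were 28.1 in MC_PB and 38.5 in MC_water in the first block, 5.89 and 19.6 in the second, and 13.2 and 56.7 in the third. These hepatectomy values include those that chose the gene and support nothing, and they rest on 2, 2 and 1 libraries a group. The fourth block held neither group. With the block as a term, the terminal difference of MC_PB from MC_water was again 0.96 (limma adjusted p = 0.89). Both groups hold the same number of libraries in each block, so the term could not change this difference.

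**Figure D3:**
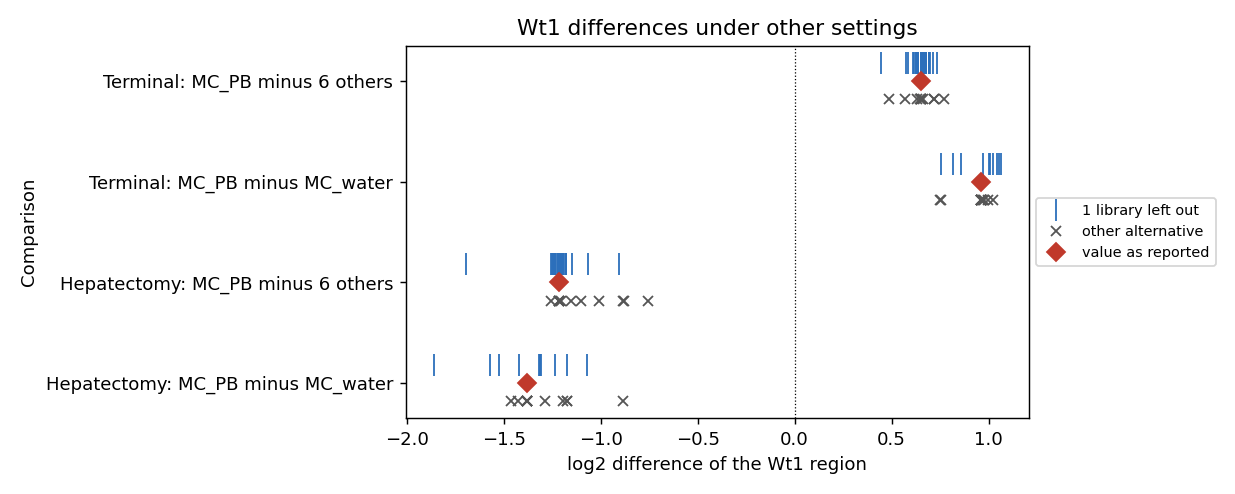
Log2 differences of the Wt1 region (x axis) for 4 comparisons (y axis), as reported (diamonds), with 1 library left out (blue ticks) and under the other alternatives (crosses). The terminal differences stay above 0 in each setting drawn; the hepatectomy differences chose the gene and are a description, and leaving out MC_PB replicate 2 moves the hepatectomy difference from MC_water to -1.86.

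The deposited peak list sets DEN30_PB against MC_PB, and 1 of its 36231 peaks carries the symbol Wt1. The peak lies on chromosome 3 from 90555502 to 90555695 (193 bp) in an intron, 26083 bp from the start of transcript ENSRNOT00000044070 and 24673 bp past the end of the region. The list places it at its time 11w, among the peaks lower with diethylnitrosamine, with 3 reads in DEN30_PB and 20 reads in MC_PB, the counts being assigned by the direction that the list names. Its enrichment factor, the authors' ratio of the 2 counts times a constant, was 7.07, close to the median of 6.90 for the 4360 peaks of that set. Peaks of that direction made up 67.7% of the peaks at 11w. No peak at either time overlapped the Wt1 region itself, and the list has no Wt1 peak at 5w, where 95.4% of peaks were higher with diethylnitrosamine. The region at terminal euthanasia was likewise lower in DEN30_PB than in MC_PB, without passing a test, but the peak and the region share no base.

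Of the 6 nearest regions on the chromosome, all 6 had smaller differences than Wt1 between MC_PB and the 6 other conditions at both times. At partial hepatectomy this follows from the choice of the gene, since 0.247% of all tested regions had a difference below that of Wt1. At terminal euthanasia 1.80% of all tested regions had a difference above that of Wt1, so smaller values are also what most regions elsewhere had. On the upstream side lay Prrg4 and Qser1, 328 and 369 kb away, and Eif3m, which encodes a subunit of a translation initiation factor, 125 kb away. Downstream lay LOC691083 at 100.0 kb, Rcn1, for a calcium-binding protein of the endoplasmic reticulum, at 320 kb, and Pax6, for an eye and pancreas transcription factor, at 598 kb. For the 5 regions other than Pax6, the difference of MC_PB from the 6 other conditions lay between -0.25 and 0.04 at terminal euthanasia and between -0.21 and 0.39 at partial hepatectomy. Pax6 had 0.12 at terminal euthanasia and -0.81 at partial hepatectomy, on low signals that averaged 19.8 ± 30.7 in MC_PB and 8.70 ± 9.40 in MC_water at terminal euthanasia (SD, n = 5 each). At partial hepatectomy its means were 7.11 ± 6.11 in MC_PB and 13.97 ± 14.96 in MC_water. None of the 6 neighbours passed the terminal limma test (adjusted p = 0.98 or higher).

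**Figure D4:**
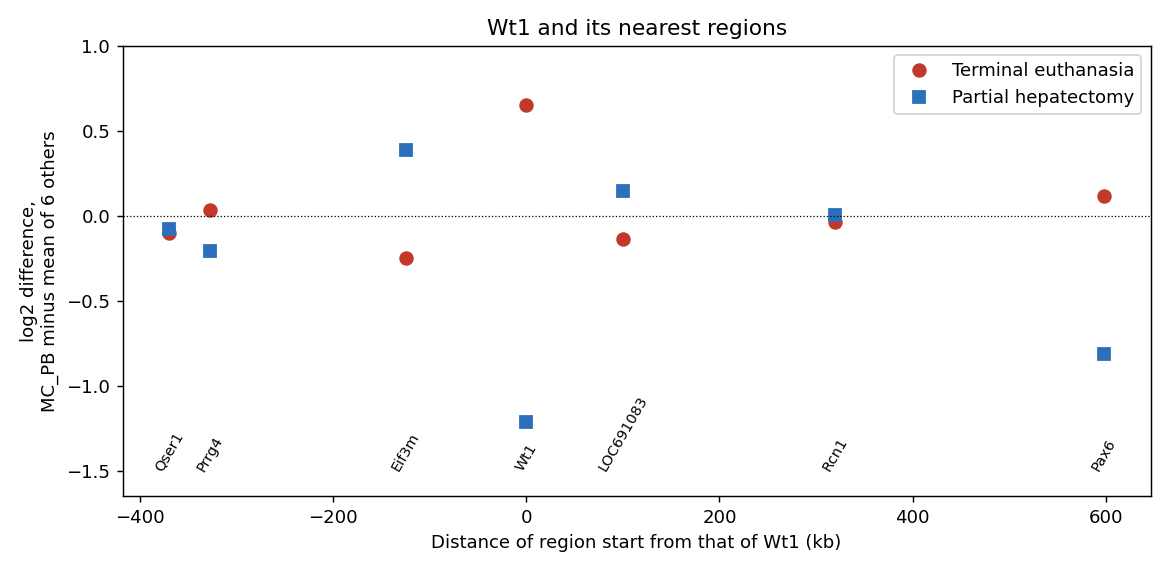
Log2 difference of MC_PB from the mean of the 6 other conditions (y axis) for Wt1 and the 3 nearest regions on each side, by distance from the Wt1 region in kb (x axis, start to start). Circles are terminal euthanasia and squares partial hepatectomy; Wt1 stands at 0.65 and -1.21.

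Likeness to Wt1 was measured as Pearson r of log2 signal across 15739 regions, and is a description. Over the 14 group means, the closest were Scnn1g (r = 0.91), for a subunit of the epithelial sodium channel, Pdgfra (0.89), for a growth factor receptor of mesenchymal cells, Tsen34 (0.87), Terf2ip (0.87) and Nat8l (0.85), where the 99th percentile of regions was 0.72. Scnn1g averaged 37.97 in MC_PB and 19.8 in MC_water at terminal euthanasia. At partial hepatectomy Scnn1g averaged 17.02 in MC_PB and 25.1 in MC_water. Regions were ranked on these same group means, so a shared order of MC_PB and MC_water follows from the choice. For Pdgfra the means were 38.9 in MC_PB and 31.4 in MC_water at terminal euthanasia, and 22.6 and 35.3 at partial hepatectomy. Over the 70 deviations from the group means, the closest were Bcl11a (r = 0.60), for a zinc finger repressor, Wdr77 (0.58), Gclc (0.58), for a glutathione synthesis enzyme, Irx5 (0.58) and Nedd8 (0.58), with a 99th percentile of 0.41. The 2 lists share no gene. The regions compared come from the same libraries, and the likeness of other pairs of regions was not measured.

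Genes tied to WT1 were looked at in lists, as MC_PB minus the mean of the 6 other conditions at terminal euthanasia. Over all tested regions the median was -0.06 and 37.04% of regions were higher in MC_PB. Of 23 known WT1 target genes 22 were found, in 24 regions, of which 10 had higher and 14 lower values in MC_PB, with a median of -0.04. No region of this list passed the limma test in either direction. The smallest unadjusted p belonged to Myc, a growth regulator, at 21.5 ± 9.40 in MC_PB (SD, n = 5) and a mean of 13.2 in the 30 other libraries, a log2 difference of 0.75 (limma adjusted p = 0.98). Igf2, a fetal growth factor, had 0.51, Cdkn1a, a cell cycle inhibitor, 0.37 and Wnt4, a signal of kidney and gonad development, -0.28, each with a limma adjusted p of 0.98.

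Of 14 genes for WT1 partner proteins 10 were found, in 12 regions, 6 with higher and 6 with lower values and a median of 0.03. Wtap, for the WT1-associated protein of the RNA methylation complex, had a log2 difference of 0.61, with means of 27.8 in MC_PB and 18.7 in the other conditions, and it holds 2 of the 12 regions with the same value. Ciao1 had -0.61 and Pawr, for an apoptosis protein that binds WT1, had -0.31. Of 8 EGR and SP zinc finger relatives 7 were found, 2 with higher and 5 with lower values and a median of -0.19, Egr4 at -0.26, Egr1 at -0.23 and Klf6 at -0.22. No region of these lists passed either (limma adjusted p = 0.98 for the lowest).

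Of 21 tumour suppressor and Wilms tumour genes 20 were found, and 25 of their 26 regions were tested, with 14 higher, 11 lower and a median of 0.02. Sfrp4, a secreted WNT inhibitor, had the smallest unadjusted p, at 41.1 ± 11.98 in MC_PB (SD, n = 5) and 27.5 in the other conditions, a log2 difference of 0.68. Its limma adjusted p was 0.98. Of 9 mesothelial marker genes 5 were found, with Bnc1 at 0.25 and Podxl at -0.18, 2 higher and 3 lower. The 5 hepatocyte marker regions had 1 higher and 4 lower, and the 6 stellate marker regions 5 higher and 1 lower, with 0 called among them. Among the remaining marker regions, 1 of 2 biliary, 1 of 3 macrophage, 1 of 2 endothelial and 0 of 7 lymphocyte ones were higher in MC_PB, also with 0 called. The 7 lymphocyte regions belong to 3 genes, and several are regions of Ptprc with the same value (-0.07). At partial hepatectomy, given without a test, the medians of MC_PB against the 6 others were -0.06 for WT1 targets, -0.09 for partners, -0.12 for the zinc finger relatives and 0.01 for tumour suppressors, against -0.01 for all regions and -1.21 for Wt1.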

How the data were processed

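Liver DNA was enriched with MethylMiner and read as 50 base reads on SOLiD 4, per the labels' protocols (the sources used here name no aligner or build). Each deposited signal was a read number that the authors scaled: all values above a placeholder of 0.01 were whole multiples (tolerance 0.01 reads) of 50 M over a whole number of 42.1 M to 56.6 M per library, with 0.01 for no read. In 10 of 10 libraries of the last number block that whole number equalled one of the first block, so their scaling may be wrong; no 2 of the 70 libraries held identical reads. The deposited p-values of the authors' t-test were not used. The deposited peak list gives read counts and a ratio of them per the file headers; its times 5w and 11w were read as the 2 samplings, although the second region table is named 10W.

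Signal was taken as log2(signal + 1); regions with a signal of 10 or more in 5 libraries were fitted with limma 3.58.1 (R 4.3.3), 1 mean per group, trend in the variance, Benjamini-Hochberg over all regions. All 35 libraries of a time entered 1 fit. Exact permutation tests (scipy 1.17.1) were two-sided. edgeR 4.0.16 and DESeq2 1.42.0 were run on the recovered reads as alternatives. The fits were also run on simulated counts, which were not set to the spread of Wt1 and say nothing about the precision at this region. Replicates are separate livers; intervals of single reads cover counting error only and are not given. Named genes were Wt1, its 3 nearest regions on each side, the 5 closest regions by each measure of likeness and up to 4 members of each list with the smallest p; members and lists were chosen with earlier results of these data known. The alternatives for the F tests, the single conditions between the times and the changes between the times were added after seeing the data. Pairing by replicate number was checked and not used in the main fits, so their differences between the times treat the samplings as independent.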

Additional observations from a re-analysis of the deposited data

Results flagged for a closer look

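MC_PB replicate 2 at partial hepatectomy had a Wt1 signal of 46.7, far above the other 4 libraries of its group, which had 4.36 to 13.2. It was set apart because its gap to the nearest library was 0.792 of the range of the group, above the Dixon limit of 0.71 for 5 samples. These ratios were taken on the deposited signal and not on the log2 scale of the fits. On the log2(signal + 1) scale this library had 5.58, against 2.42 to 3.82 in the other 4, and no limit was applied there. This library is not among the weakly enriched ones. MC_PB replicate 5 at terminal euthanasia had a signal of 80.1, against 35.7 to 43.8 in the other 4, a gap of 0.817 of the range, and is a weakly enriched library. Chance sets apart about 1 in 20 groups if the values are normal, which was not checked for these signals, and 14 groups were looked at.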

How the results depend on the processing

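Of 793 values under alternatives, for 30 results, 744 were counted as the same and 49 changed sign. A tested difference counted as the same if it kept its direction and side of the threshold, and an F test if it kept its side. Values without a test counted as the same if they moved by less than 0.67, the residual SD at partial hepatectomy. None of the 604 with a test passed the threshold (lowest limma adjusted p = 0.36, DEN3_PB minus MC_PB at terminal euthanasia without MC_PB replicate 1). The terminal log2 difference of MC_PB from the 6 other conditions ranged from 0.45 (without MC_PB replicate 5) to 0.73 with 1 library left out, and from 0.49 to 0.77 otherwise; that from MC_water ranged from 0.76 to 1.06, and from 0.75 to 1.02. The hepatectomy description against the 6 others ranged from -1.69 (without MC_PB replicate 2) to -0.90 (without replicate 4), and reached -0.76 with a pseudocount of 10. Differences near 0 changed sign, and the cause was not tested. TAA45_PB minus MC_PB at terminal euthanasia was -0.056 with quantile normalization, -0.014 when scaled by the reads in regions, -0.034 with edgeR, -0.045 with DESeq2, -0.13 with library blocks, and -0.14 to 0.22 with 1 library left out. DEN30_PB minus DEN3_PB there was -0.11 with library blocks, -0.023 without weakly enriched libraries, and -0.23 (without DEN3_PB replicate 2) to 0.46 with 1 left out. The mean change between the times was -0.036 when scaled by the reads in regions, -0.056 without weakly enriched libraries, and -0.037 to 0.082 with 1 left out. That of MP100_PB was 0.0013 with edgeR, 0.019 with DESeq2, and -0.34 to 0.24 (without terminal replicate 5) with 1 left out, that of DEN3_PB -0.034 to 0.66, and the hepatectomy difference of initiated conditions from MC_water -0.39 to 0.0035. Replicate numbers were not taken to pair the samples, since the labels do not say that they do. In 11 of 35 same-numbered pairs of 1 condition the correlation of deviations was over 0.1, and the median was 0.08. The own number was the best of 5 in 21 of 35 pairs, where random numbering would give 1 in 5. Some rats may thus have been sampled at both times, and this was not settled. For Wt1 itself r was 0.15 (permutation p = 0.40) and rho 0.24 (permutation p = 0.17) over the 35 pairs, and r was 0.24 without the 2 farthest. With a replicate block no result passed. That block could not change the terminal difference of MC_PB from MC_water, 0.96 (limma adjusted p = 1.00), since each group holds every replicate number. The 4 to 72 reads under a value limit what can be seen.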
